A study of Homo sapiens with 9 samples.

Results

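The genes described here encode the Eph receptors, their ephrin ligands, the semaphorins, and the plexins and neuropilins that receive semaphorins. They were taken from the count table by name, as protein-coding genes whose symbols follow the family patterns EPHA or EPHB, EFNA or EFNB, SEMA3 to SEMA7 and PLXNA to PLXND, together with NRP1 and NRP2. The rule used no measured value and found 53 genes among 58676. It gave 14 Eph receptors, 8 ephrins, 7 secreted semaphorins, 13 membrane-bound semaphorins, 9 plexins and 2 neuropilins. Of these, 46 had at least 10 counts in at least 3 of the 9 libraries and are reported. The other 7 were EPHA7 and EPHA8, with no count in any library, EPHA10, SEMA3G, SEMA5B and SEMA6D, with at most 4 counts in any library, and PLXNA4, whose highest count was 21.

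The study sequenced messenger RNA of OVCA433, an established cell line of ovarian serous adenocarcinoma, after knockdown of MPZL3, a cell surface protein with an immunoglobulin-like domain. All cells were transduced with lentivirus. The control group carried a control vector and was labelled wild type, and the other groups carried a short hairpin RNA against MPZL3, hairpin #1 or hairpin #3, and were labelled MPZL3 knock-down. There were 3 libraries per group, A, B and C, described as biological replicates. The methods select transduced OVCA433 cells with puromycin and describe no single-cell cloning. They call the OVCA433 control an empty vector at 1 point and a scrambled sequence at another, and it is therefore uncertain if the control cells make a hairpin.

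Eph receptors are receptor tyrosine kinases on the cell surface, and ephrins are their ligands on neighbouring cells. Ephrin-A proteins are held by a lipid anchor and mostly bind EphA receptors, while ephrin-B proteins span the membrane and mostly bind EphB receptors, and binding can send a signal into both cells. Semaphorins act through plexins. Secreted class 3 semaphorins mostly bind a complex of a neuropilin and a class A plexin, whereas most membrane-bound classes bind plexins directly. The families were described as guidance cues of growing axons and vessels, and in epithelia they act on cell adhesion, repulsion and movement.

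MPZL3 itself was measured at 15.6, 21.9 and 21.0 CPM (read counts scaled to library size, here with normalisation factors of the trimmed mean of M-values) in control libraries A, B and C. It was at 1.87, 1.98 and 1.80 CPM with hairpin #1 and at 1.94, 0.988 and 1.80 CPM with hairpin #3. No knockdown library reached 2 CPM and no control library was under 15 CPM. MPZL3 fell by 3.37 ± 0.219 (SE) on the log2 scale with hairpin #1 and by 3.62 ± 0.227 with hairpin #3. Library totals ranged from 16850854 to 23890191 counts, and 15975 genes were tested. The counts were made without strand, so reads of overlapping genes on opposite strands cannot be told apart. In bulk RNA, fewer cells of a type and less RNA per cell cannot be told apart either.

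The cells also shifted in marker genes of other states. Of 10 epithelial markers, 9 were lower with each hairpin, and their summed level went from 11969 to 14899 CPM in control libraries to 5137 to 6631 with hairpin #1 and 5075 to 5660 with hairpin #3. All 9 tested mesenchymal markers of 10 listed were higher with each hairpin, with sums of 1856 to 2286, 6802 to 15418 and 7631 to 12153 CPM. The ovarian serous markers moved in both directions. PAX8 was expressed in every library, at 82.3 to 115 CPM in control, 191 to 214 with hairpin #1 and 189 to 230 with hairpin #3, and was called higher with both (1.04 and 1.10). MSLN was called higher with hairpin #3 (1.12), and SOX17 was at 0.98 and 0.95. CD24, WFDC2 and MUC16 were called lower with both, and WT1 and EMX2 had at most 3 counts in any library. The summed list lay at 886 to 943 CPM in control, against 371 to 387 with hairpin #1 and 379 to 485 with hairpin #3, and CD24 alone went from 622 ± 22.2 CPM to 60.2 ± 12.5 and 47.5 ± 2.41. Of 8 endothelial markers, 5 were tested, 2 were called higher with both hairpins, and 1 was called lower with hairpin #3. Their sum was 15.8 to 24.9 CPM in control and 342 to 400 CPM in knockdown libraries, and was mostly TIE1. Of 8 neuronal markers, 3 were higher with both hairpins, and the sum was 7.12 to 9.10 CPM in control and 31.7 to 72.3 CPM in knockdown libraries, with STMN2, DCX and ELAVL4 at no more than 3 counts in any library. Of 8 leukocyte markers, 5 had at most 3 counts in any library, and the sum, mostly LCP1, was 228 to 258 CPM in control and 6.49 to 47.4 CPM in knockdown libraries. The part of these shifts in the changes given next was not tested.

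The word called is used for genes with an adjusted p-value below 0.05 that also moved by 1 or more on the log2 scale, in either direction. With hairpin #1, 20 of the 46 reported genes were called, 12 higher and 8 lower, which was 43.5%, where 16.3% of all 15975 tested genes were called (7.76% higher and 8.55% lower). With hairpin #3, 19 were called, 12 higher and 7 lower, which was 41.3% against 15.3% of all tested genes (7.46% higher and 7.83% lower). Both hairpins called 15 of them in the same direction, 9 higher and 6 lower, or 32.6% against 11.8% of all tested genes (5.58% higher and 6.23% lower). The median absolute log2 fold change was 0.95 with hairpin #1 and 0.78 with hairpin #3, and over all tested genes it was 0.33 and 0.30. The families did not shift one way, since their median log2 fold changes were -0.13 and -0.05. At the adjusted p-value alone, 33 genes passed with hairpin #1 and 31 with hairpin #3, where 37.8% and 34.7% of all tested genes passed, and all 27 that passed with both had the same direction. With both hairpins as 1 arm of 6 libraries, as the study grouped them, 20 genes were called, 13 higher and 7 lower, where 14.7% of all tested genes were called (7.26% higher and 7.40% lower). The hairpins share the control libraries, so these counts are not independent of each other.

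**Figure D1:**
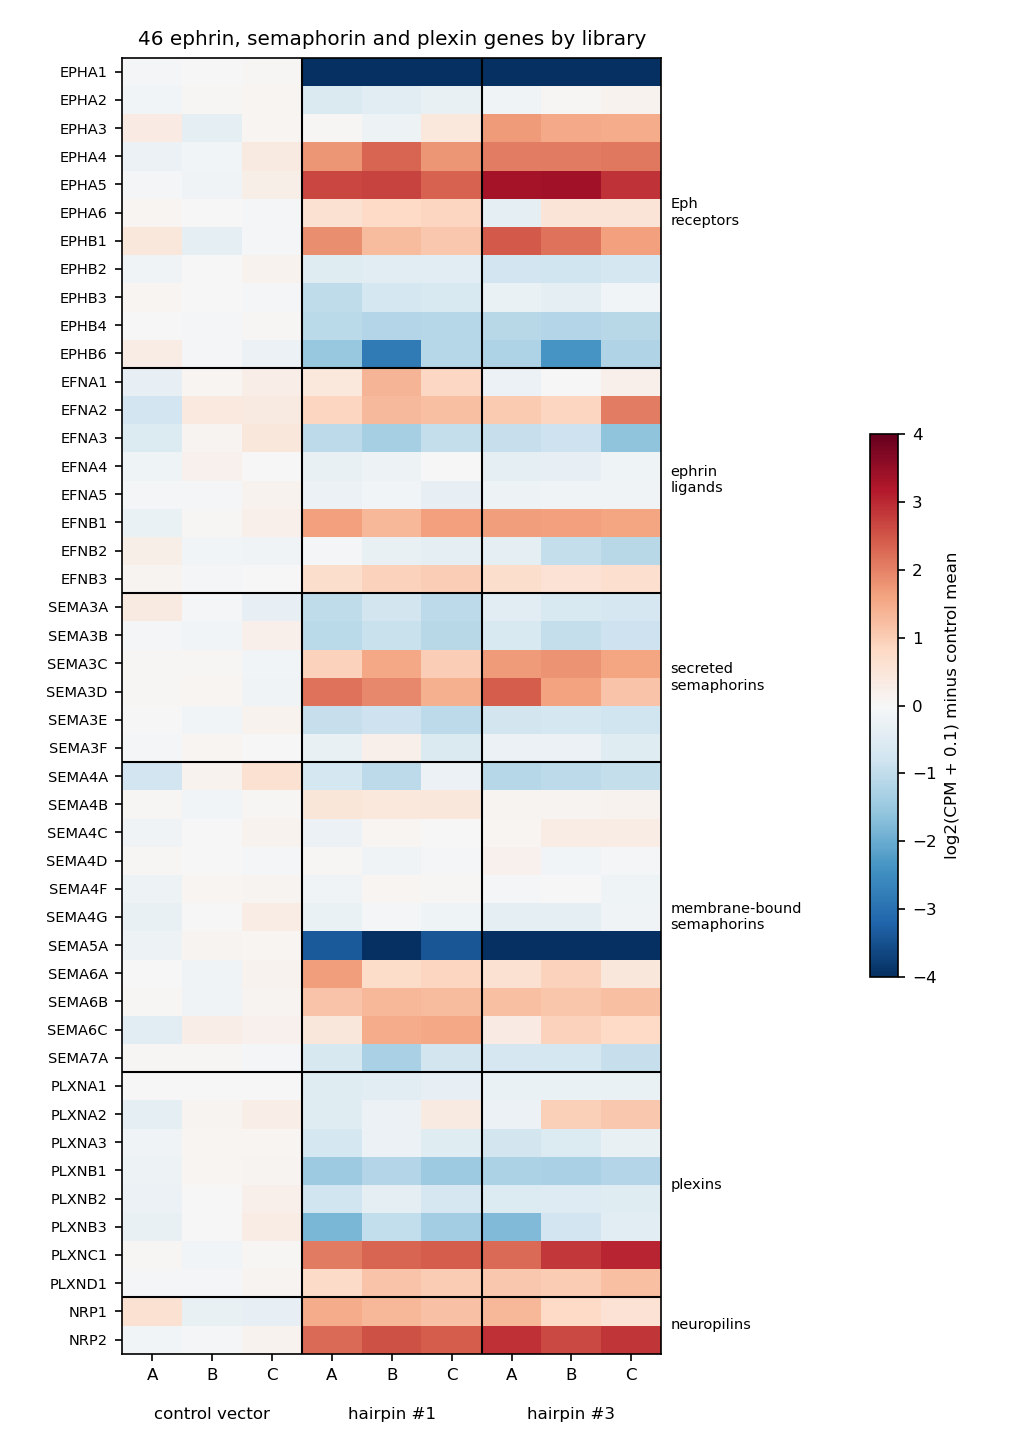
Level of each of the 46 reported genes (rows, grouped by role) in each of the 9 libraries (columns), as log2(CPM + 0.1) minus the mean of the 3 control libraries, with the colour scale ending at 4 in both directions. EPHA1 and SEMA5A are dark blue and EPHA5, NRP2 and PLXNC1 are dark red in the 6 knockdown libraries.

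The E-box CAGGTG, which the repressors SNAI1, SNAI2, ZEB1 and ZEB2 bind in epithelial genes, was sought in the promoters of the members, since several epithelial genes were low in the knockdown cells. RefSeq promoters of GRCh38.p14 covered 250 bases before to 50 after each start site, both strands were searched, and 47 of the 53 genes were matched. SEMA3A, NRP1, EFNB3, SEMA6B, SEMA6A and EPHA10 were not matched. The motif was in 20.6% of all 35116 promoters. It was in 2 of the 7 promoters of the 6 genes called lower with both hairpins, in none of the 12 promoters of the 8 matched genes called higher with both, and in 10 of the 43 promoters of the other tested members. These counts are small and are descriptions with no test, and a match is not a site of binding. The windows below show the motif, or its reverse complement CACCTG, in capitals within 30 bases of the gene's own strand. They are given for EPHA1, which was called lower with both hairpins, and for PLXNB3 and SEMA3B, which were called lower with hairpin #1. EPHB2 is given too, which was not called but was lower with both hairpins at the adjusted p-value (-0.47 and -0.76). All genes shown thus had lower values, and the motif was also in promoters of members that passed the adjusted p-value with neither hairpin.
EPHA1: aaggaggtgaacCAGGTGaggccgggactc
PLXNB3: tctctcacctgcCAGGTGcccacggtcagt
SEMA3B: ttctgggaccgcCACCTGgggcacccttct
EPHB2: gcgcccgcggctCAGGTGggccgtgcccag
The EPHA1 window is chr7:143408919-143408948 on the minus strand, with the motif starting 80 bases before the start site. The PLXNB3 window is chrX:153764058-153764087 on the plus strand and holds a second copy on the other strand, in lower case. The SEMA3B window is chr3:50267404-50267433 and the EPHB2 window chr1:22710764-22710793, both on the plus strand.

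The Eph receptors moved in both directions. Of 11 reported receptors, 6 were called with hairpin #1 and 7 with hairpin #3, and 3 were lower and 3 higher with both. EPHA1, a receptor typical of epithelial cells, lies on chromosome 7 at 143390289 to 143408892 of hg38. It was at 53.7, 54.9 and 57.2 CPM in control libraries, at 0.421, 1.07 and 0.857 CPM with hairpin #1 and at 1.24, 0.713 and 0.967 CPM with hairpin #3. The 6 knockdown libraries were all far below the control libraries and overlapped each other. The fitted log2 fold changes were -6.14 ± 0.216 (adjusted p = 3.10e-10) and -5.83 ± 0.213 (adjusted p = 3.93e-10). The 3 control libraries held 3410 counts and those of the hairpins 50 and 55, a ratio of normalised levels of 71.2 (95% exact counting interval 53.9 to 96.1) and 57.3 (43.9 to 76.2), which covers counting error only. The gene shares 823 bases with ZYX on the opposite strand, which reached 7719 counts in a library.

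EPHB4, the main receptor of ephrin-B2 in vessels, and EPHB6, which lacks kinase activity, also fell. EPHB4 was at 230, 226 and 239 CPM in control, 109, 102 and 104 CPM with hairpin #1 and 108, 103 and 107 CPM with hairpin #3. These knockdown libraries lay close together, under the lowest control library, and the log2 fold changes of -1.14 ± 0.0834 and -1.13 ± 0.0834 had adjusted p-values of 2.01e-07 and 2.26e-07. It shares 702 bases with SLC12A9 on the opposite strand. EPHB6 was rare, at 1.21, 0.946 and 0.812 CPM in control, at 0.280, 0.0509 and 0.386 CPM with hairpin #1 and at 0.353, 0.110 and 0.368 CPM with hairpin #3. Control libraries held 61 counts of it and each hairpin 16. Its log2 fold changes were -1.98 ± 0.531 (adjusted p = 0.00954) and -1.80 ± 0.533 (adjusted p = 0.0181), and the hairpin #3 call was lost without control library A (adjusted p = 0.0600), without hairpin #3 library B (adjusted p = 0.0847) or with the B and C libraries alone (adjusted p = 0.0507). EPHB6 lies 519 kb from EPHA1 on chromosome 7.

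EPHA4, EPHA5 and EPHB1, receptors best known from axon guidance and the nervous system, rose. EPHA5 on chromosome 4, at 65319563 to 65670495, was at 1.55, 1.49 and 1.96 CPM in control, 11.1, 11.4 and 8.96 CPM with hairpin #1 and 17.6, 17.9 and 12.8 CPM with hairpin #3. Its groups did not overlap, and the log2 fold changes were 2.64 ± 0.201 (adjusted p = 2.90e-07) and 3.26 ± 0.200 (adjusted p = 3.86e-08). EPHA4, which binds ephrins of both classes, was at 8.57, 9.31 and 12.9 CPM in control, 34.3, 50.8 and 34.4 CPM with hairpin #1 and 41.8, 42.5 and 43.6 CPM with hairpin #3. Every knockdown library was above every control library, by log2 fold changes of 1.96 ± 0.177 and 2.06 ± 0.178 (adjusted p = 1.49e-06 and 1.02e-06). EPHB1 was at 2.86, 1.54 and 2.01 CPM in control, 7.80, 5.09 and 4.5 CPM with hairpin #1 and 11.8, 9.6 and 6.63 CPM with hairpin #3. In all 3 groups its highest library was A, and the log2 fold changes were 1.44 ± 0.295 (adjusted p = 0.00170) and 2.12 ± 0.291 (adjusted p = 7.64e-05).

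EPHA2 was the member with the highest level per length in control, and it was not called. It was at 362, 403 and 414 CPM in control, 263, 291 and 318 CPM with hairpin #1 and 357, 407 and 436 CPM with hairpin #3. The hairpin #1 libraries lay below the control libraries and those of hairpin #3 overlapped them, with log2 fold changes of -0.44 ± 0.110 (adjusted p = 0.00663) and 0.02 ± 0.110 (95% interval -0.21 to 0.26). EPHA3, a receptor of ephrin-A5, was the only reported gene called between the hairpins, where 3.93% of all tested genes were called. It was at 0.484, 0.249 and 0.382 CPM in control, 0.374, 0.305 and 0.514 CPM with hairpin #1 and 1.41, 1.21 and 1.20 CPM with hairpin #3. The libraries of hairpin #3 stood above the other 6, by a log2 fold change of 1.75 ± 0.375 against control (adjusted p = 0.00249) and 1.65 ± 0.369 against hairpin #1 (adjusted p = 0.0109). The latter call was lost with the B and C libraries alone, at 1.52 and an adjusted p of 0.0509. The other 3 reported receptors were EPHB2, at -0.47 and -0.76, EPHB3, at -0.77 and -0.23, and EPHA6, at 0.84 and 0.33 on the log2 scale with hairpin #1 and hairpin #3. EPHB3 shares its whole span of 20626 bases with EIF2B5 on the same strand, which reached 1892 counts.

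Summed over the receptors per kilobase of gene, a scale that allows genes of different length to be added, EphB receptors were at 54.5 ± 1.97 CPM per kb (SD, n = 3) in control and at 29.6 ± 0.323 and 29.6 ± 0.771 with the hairpins. The EphA sum was 108 ± 7.17 in control, against 76.6 ± 6.75 with hairpin #1 and 104 ± 9.54 with hairpin #3. EPHA2 made up 58.2% ± 1.29 of the Eph receptor sum in control, against 65.7% ± 2.24 with hairpin #1 and 71.9% ± 2.28 with hairpin #3. The share of EPHA1 went from 7.20% to 0.154% and 0.155%, that of EPHB4 from 22.2% to 15.4% and 12.4%, and that of EPHA4 from 0.831% to 4.97% and 4.23%. EPHA5, although called higher, made up 1.01% and 1.24% of the sum with the hairpins.

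Among the 8 ephrins, EFNB1 was called higher and EFNA3 lower with both hairpins. EFNB1, on the X chromosome, encodes the transmembrane ephrin-B1 and was at 9.35, 11.5 and 12.9 CPM in control. It was at 34.8, 28.2 and 35.2 CPM with hairpin #1 and at 35.8, 34.8 and 33.7 CPM with hairpin #3. The 6 knockdown libraries were close together and all above control, at log2 fold changes of 1.54 ± 0.134 (adjusted p = 1.03e-06) and 1.62 ± 0.135 (adjusted p = 6.78e-07). EFNA3, a lipid-anchored ephrin, was at 1.99, 3.19 and 4.16 CPM in control, 1.4, 1.12 and 1.5 CPM with hairpin #1 and 1.53, 1.65 and 0.921 CPM with hairpin #3. The lowest control library lay close above the knockdown libraries, and the log2 fold changes were -1.21 ± 0.317 (adjusted p = 0.00864) and -1.20 ± 0.322 (adjusted p = 0.0107). Without control library C they were -0.94 and -0.93, and the calls were lost. The hairpin #3 call was lost without hairpin #3 library C too, at -0.96.

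EFNA4, EFNA3 and EFNA1 lie in that order within 71.1 kb of chromosome 1 and did not move together. With hairpin #1 and hairpin #3 their log2 fold changes were -0.17 and -0.31 for EFNA4, -1.21 and -1.20 for EFNA3, and 0.89 and -0.01 for EFNA1. EFNA1, a ligand of EPHA2, thus passed the adjusted p-value with hairpin #1 alone (adjusted p = 0.00475), and its values of 37.9, 72.7 and 50.2 CPM were spread widely. It was called with that hairpin without control library C (1.03) or hairpin #1 library A (1.09). EFNB3 was at 0.88 and 0.64 and EFNB2, the ligand of EPHB4, at -0.24 and -0.80, and EFNA5 was at -0.23 and -0.17. EFNA2 was called with hairpin #3 alone, at 1.58 ± 0.489 (adjusted p = 0.0228), from 3 to 9 counts per control library and 12 to 35 per hairpin #3 library. The call was lost without control library A (1.22, adjusted p = 0.0859) or hairpin #3 library C (1.05, adjusted p = 0.163). With hairpin #1 EFNA2 was at 1.23 (adjusted p = 0.0678), and it was called with a block for the replicate letter (1.26, adjusted p = 0.0357). Its difference between the hairpins was 0.35 (adjusted p = 0.691). EFNA2 shares 14084 bases with MUM1 on the same strand, which reached 563 counts. The summed ephrin-B level was 20.4 ± 1.4 CPM per kb in control, against 30.3 ± 1.12 with hairpin #1 and 26.3 ± 2.24 with hairpin #3, while the summed EphB receptors were lower than in control, as given above.

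**Figure D2:**
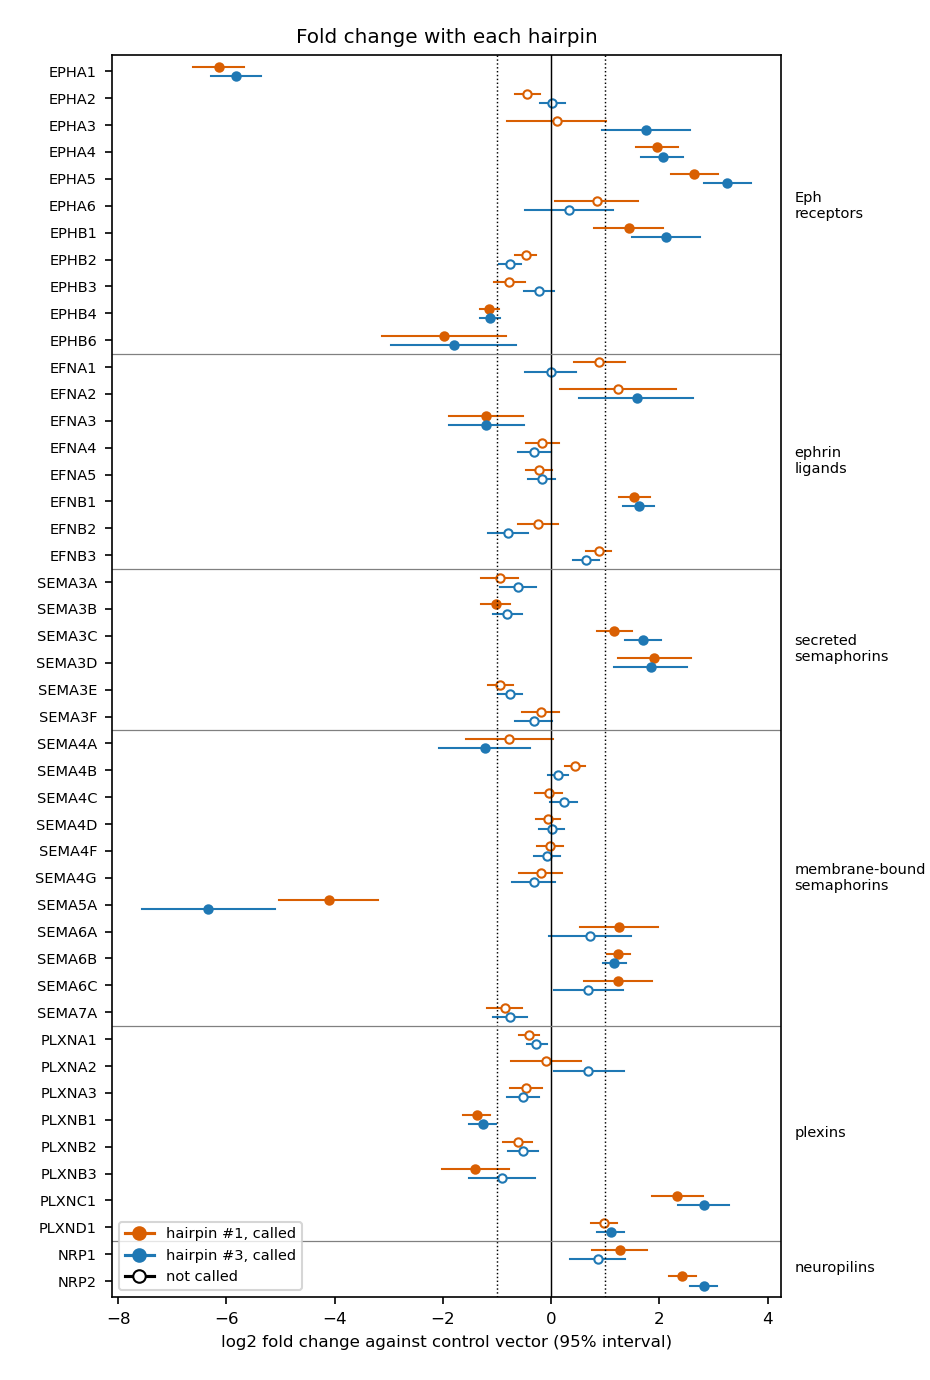
Log2 fold change of each reported gene against the control vector with hairpin #1 (orange) and hairpin #3 (blue), with 95% intervals, filled for called genes, whose values lie beyond the dotted lines at 1 and -1. The filled points lie on both sides within each role except the neuropilins, and EPHA1 and SEMA5A lie farthest left.

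The secreted semaphorins changed in opposite directions within a family of 6 reported genes. SEMA3C, a class 3 semaphorin that promotes migration in several carcinoma models, was at 188, 187 and 170 CPM in control. It was at 343, 530 and 356 CPM with hairpin #1 and at 590, 637 and 544 CPM with hairpin #3. All knockdown libraries were above control and those of hairpin #3 were above those of hairpin #1, with log2 fold changes of 1.17 ± 0.150 (adjusted p = 3.52e-05) and 1.70 ± 0.152 (adjusted p = 1.40e-06). Without hairpin #1 library B the former was 0.94, under the fold threshold. SEMA3D was at 2.52, 2.59 and 2.20 CPM in control, 11.4, 9.41 and 6.73 CPM with hairpin #1 and 13.5, 7.57 and 5.43 CPM with hairpin #3. Its hairpin groups overlapped each other and not the control, at 1.91 ± 0.311 (adjusted p = 2.90e-04) and 1.85 ± 0.314 (adjusted p = 4.40e-04).

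SEMA3C, SEMA3E, SEMA3A and SEMA3D lie in that order on chromosome 7 between 80742538 and 85186855, all on the minus strand. The outer genes of this group rose and the inner genes did not. SEMA3A, a collapsing factor of axon growth cones, went from 59.8 ± 14.4 CPM to 31.0 ± 3.87 and 39.2 ± 2.98, and SEMA3E, a ligand of plexin D1, from 46.4 ± 4.29 CPM to 24.2 ± 1.84 and 27.4 ± 0.858. Their log2 fold changes, -0.95 and -0.61 for SEMA3A and -0.94 and -0.76 for SEMA3E, passed the adjusted p-value and not the fold threshold. SEMA3B, on chromosome 3, was called lower with hairpin #1, at -1.02 ± 0.123 (adjusted p = 2.12e-05), and was at -0.81 ± 0.123 with hairpin #3. It lay at the fold threshold, and the call was lost without control library C (-0.92) or hairpin #1 library A or C (-1.0 and -0.98). SEMA3A was called with hairpin #1 when control library C (-1.10) or hairpin #1 library B (-1.06) was left out. SEMA3F was at -0.19 and -0.32 (adjusted p = 0.379 and 0.144). SEMA3C therefore took 47.4% ± 1.72 of the secreted semaphorin level per kb in control, against 75.3% ± 2.33 with hairpin #1 and 80.8% ± 1.36 with hairpin #3, and the summed level was 61.1 ± 1.47, 86.5 ± 19.9 and 116 ± 8.4 CPM per kb.

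**Figure D3:**
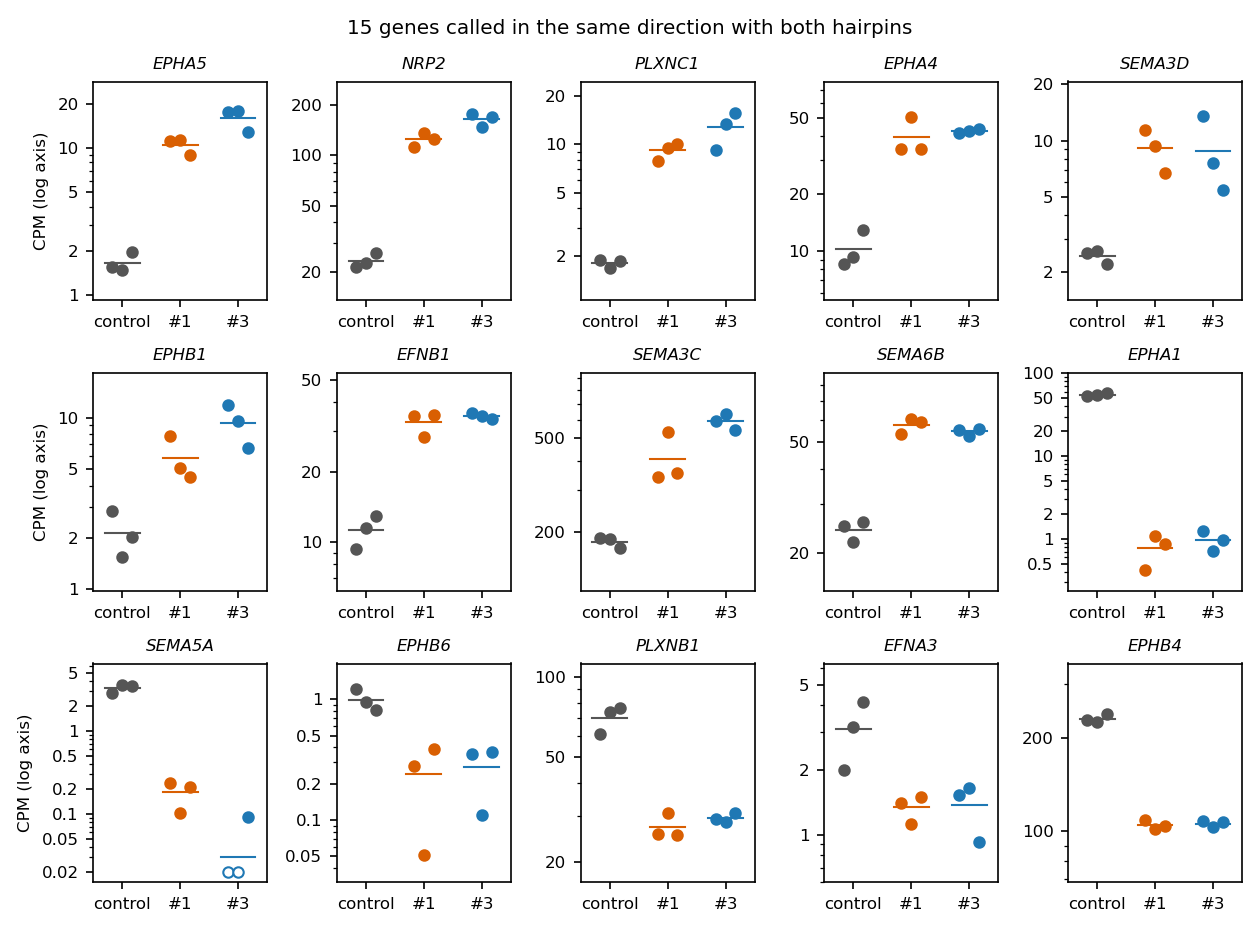
CPM on log axes in each control (grey), hairpin #1 (orange) and hairpin #3 (blue) library for the 15 genes that both hairpins moved in 1 direction, with bars for group means and open circles for libraries with 0 counts, drawn at 0.02. In every panel the 6 knockdown libraries lie on 1 side of the 3 control libraries.

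Of the 11 reported membrane-bound semaphorins, SEMA5A fell and SEMA6B rose with both hairpins. SEMA5A on chromosome 5, at 9035026 to 9546075, encodes a semaphorin with thrombospondin repeats that binds plexin B3. It was at 2.86, 3.58 and 3.49 CPM in control, 0.234, 0.102 and 0.214 CPM with hairpin #1, and 0, 0 and 0.0921 CPM with hairpin #3. In raw counts the groups held 204, 12 and 2. The control level was 17.7 times that of hairpin #1 (95% exact counting interval 9.94 to 34.9) and 94.2 times that of hairpin #3 (25.7 to 783). The fitted log2 fold change with hairpin #1 was -4.11 ± 0.424 (adjusted p = 5.07e-06), and the adjusted p with hairpin #3 was 1.40e-06. SEMA6B, a transmembrane ligand of class A plexins, was at 24.9, 21.9 and 25.9 CPM in control, 53.5, 60.2 and 58.7 CPM with hairpin #1 and 55.3, 52.6 and 55.6 CPM with hairpin #3. The knockdown libraries were all above 52 CPM, and the log2 fold changes were 1.24 ± 0.0998 (adjusted p = 4.67e-07) and 1.17 ± 0.0999 (adjusted p = 9.12e-07).

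The other class 6 genes, SEMA6A and SEMA6C, were called higher with hairpin #1 alone, at 1.25 ± 0.336 (adjusted p = 0.00966) and 1.24 ± 0.291 (adjusted p = 0.00419), and were at 0.72 and 0.69 with hairpin #3 (adjusted p = 0.134 and 0.0923). The difference between the hairpins was not past the test for either (adjusted p = 0.346 and 0.252), with 95% intervals of -1.22 to 0.16 and -1.16 to 0.06. The SEMA6A call was lost without hairpin #1 library A (0.88, adjusted p = 0.0580) or with the B and C libraries alone (0.89, adjusted p = 0.0998). The summed class 6 level was 6.15 ± 0.445 CPM per kb in control, against 14.6 ± 1.24 with hairpin #1 and 13.4 ± 0.282 with hairpin #3. Class 4 semaphorins, ligands of class B plexins among others, summed to 26.9 ± 1.62 CPM per kb in control, 29.3 ± 0.832 with hairpin #1, and 28.3 ± 0.292 with the other hairpin. SEMA4D, the ligand of plexin B1, was at log2 fold changes of -0.05 (95% interval -0.28 to 0.17) and 0.01 (-0.22 to 0.23). SEMA4B was at 0.44 and 0.12, SEMA4C at -0.04 and 0.23, SEMA4F at -0.02 and -0.08, and SEMA4G at -0.19 and -0.32. SEMA4A was called lower with hairpin #3 alone, at -1.23 ± 0.390 (adjusted p = 0.0251), and it was called in 4 of the 9 fits that left out 1 library. Without control library B or C or any of hairpin #3 libraries A, B and C the call was lost, with values from -1.28 to -0.86 and adjusted p-values from 0.0568 to 0.134. With hairpin #1 SEMA4A was at -0.77 (adjusted p = 0.121). It was called with that hairpin without control library A (-1.08, adjusted p = 0.0229) or with the B and C libraries alone (-1.02, adjusted p = 0.0363). SEMA7A, the lipid-anchored semaphorin that binds plexin C1, went from 75.2 ± 3.79 CPM to 41.4 ± 9.73 and 44.4 ± 3.97, log2 fold changes of -0.86 and -0.76 that passed the adjusted p-value and not the fold threshold.

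Among the 8 reported plexins, those of classes C and D were higher with knockdown and those of class B lower. PLXNC1 was at 1.89, 1.69 and 1.86 CPM in control, 7.90, 9.56 and 10.1 CPM with hairpin #1 and 9.18, 13.4 and 15.8 CPM with hairpin #3. Its hairpin groups overlapped each other and lay well above control, at log2 fold changes of 2.33 ± 0.221 (adjusted p = 2.21e-06) and 2.82 ± 0.220 (adjusted p = 3.88e-07). It shares 1227 bases with CEP83 on the opposite strand, which reached 329 counts. PLXND1, which binds SEMA3E, went from 92.3 ± 7.08 CPM to 181 ± 24.6 and 198 ± 14.2, at 0.98 ± 0.114 with hairpin #1, just under the fold threshold, and 1.10 ± 0.114 with hairpin #3 (adjusted p = 1.56e-05 and 5.99e-06). Without control library C (1.04) or hairpin #1 library A (1.08) it was called with hairpin #1 too. PLXNB1, on chromosome 3 at 48403854 to 48430051, was at 60.8, 73.8 and 76.2 CPM in control, 25.5, 30.8 and 25.3 CPM with hairpin #1 and 29.1, 28.3 and 30.7 CPM with hairpin #3. No knockdown library reached the control libraries, and the log2 fold changes were -1.37 ± 0.117 (adjusted p = 8.40e-07) and -1.26 ± 0.117 (adjusted p = 1.99e-06).

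PLXNB2, the plexin with the highest level per length in every group, was at 446, 530 and 596 CPM in control, 302, 394 and 329 CPM with hairpin #1 and 359, 361 and 375 CPM with hairpin #3. All knockdown libraries were under the control libraries, at -0.62 ± 0.125 and -0.52 ± 0.125 (adjusted p = 0.00156 and 0.00524), which is under the fold threshold. PLXNB3, the receptor of SEMA5A, was called lower with hairpin #1, at -1.40 ± 0.287 (adjusted p = 0.00174), and was at -0.91 ± 0.282 with hairpin #3, where it was called without control library A (-1.05) or hairpin #3 library C (-1.20). With single libraries left out in turn, the hairpin #3 value ranged from -1.20 to -0.63, with adjusted p-values of up to 0.0932. PLXNA1, a co-receptor of class 3 semaphorins, was at 320, 325 and 327 CPM in control, 233, 241 and 256 CPM with hairpin #1 and 268, 267 and 272 CPM with hairpin #3. Its libraries were tightly grouped and every knockdown library was lower, at -0.41 ± 0.0846 and -0.27 ± 0.0846 (adjusted p = 0.00173 and 0.0251). PLXNA3 was at -0.46 and -0.52, and PLXNA2 at -0.10 and 0.69 (adjusted p = 0.824 and 0.0924). Per kb, class B plexins summed to 81.9 ± 11.7 CPM in control, against 50.8 ± 7.05 with hairpin #1 and 54.6 ± 1.74 with hairpin #3, and classes C and D to 9.66 ± 0.732, 19.6 ± 2.63 and 21.6 ± 1.65. PLXND1 took 7.40% of the plexin sum in control and 18.9% with either hairpin.

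The neuropilins, which bind secreted semaphorins and vascular endothelial growth factor, were both higher. NRP2, on chromosome 2 at 205681990 to 205798133, was at 21.5, 22.7 and 25.9 CPM in control. It was at 113, 136 and 126 CPM with hairpin #1 and at 178, 147 and 169 CPM with hairpin #3. The 3 groups did not overlap, and the log2 fold changes of 2.42 ± 0.117 and 2.82 ± 0.119 had adjusted p-values of 3.57e-09 and 1.29e-09. NRP1 was at 49.2, 26.6 and 25.9 CPM in control, 91.7, 81.4 and 72.7 CPM with hairpin #1 and 80.7, 55.9 and 48.3 CPM with hairpin #3. Library A was the highest in each group, and control library A overlapped hairpin #3. Its log2 fold changes were 1.27 ± 0.236 (adjusted p = 8.01e-04), which was called, and 0.86 ± 0.236 (adjusted p = 0.0120), which was not. Without control library A the latter was 1.23 and called. With single libraries left out in turn, the hairpin #3 value ranged from 0.61 to 1.23, with adjusted p-values of up to 0.0649. The summed neuropilin level was 4.63 ± 1.04 CPM per kb in control, against 16.1 ± 0.752 with hairpin #1 and 17.2 ± 2.33 with hairpin #3, and NRP2 took 37.8% ± 9.88, 55.9% ± 4.66 and 69.2% ± 4.89 of it.

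**Figure D4:**
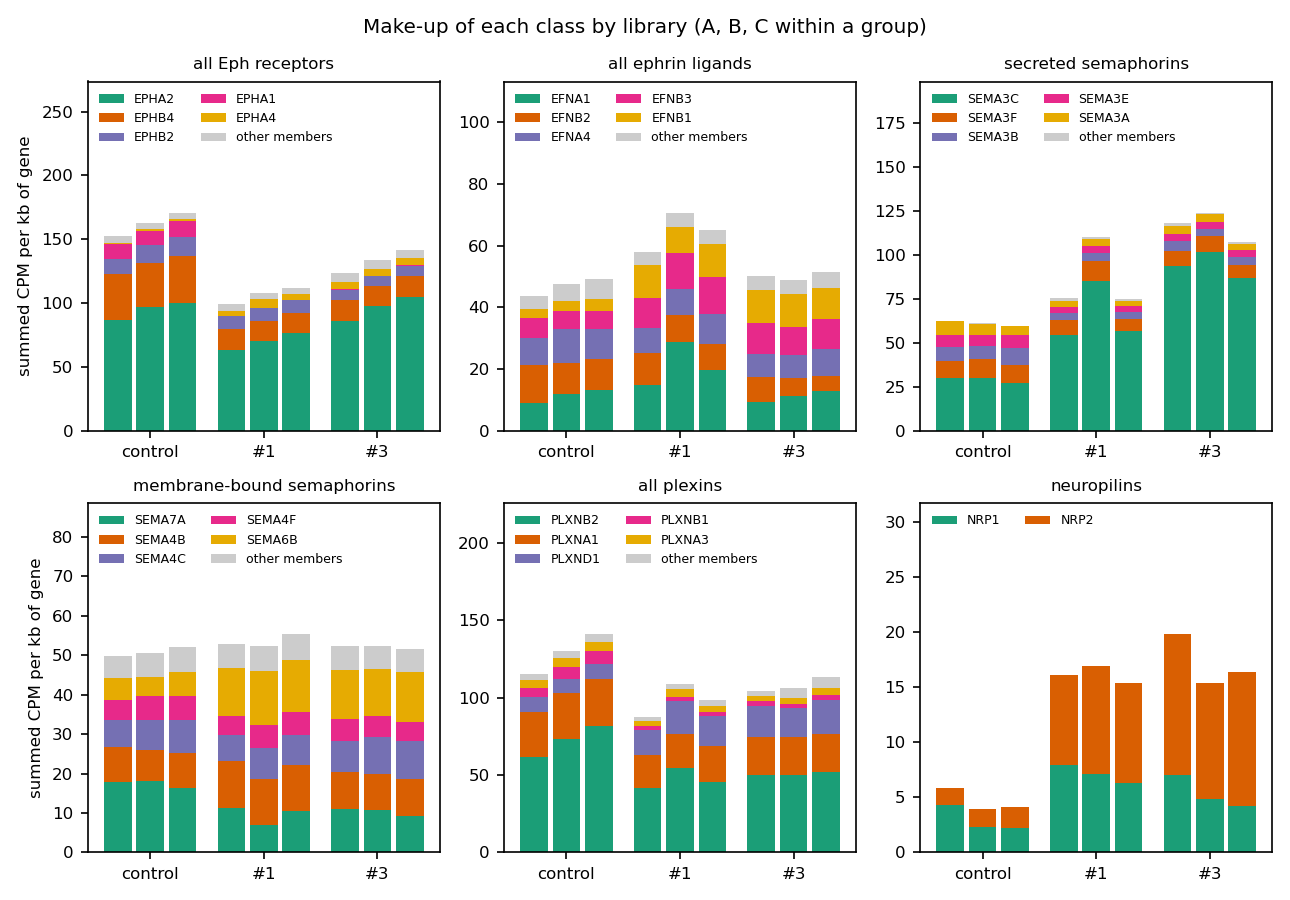
Summed CPM per kb of gene in each library (bars A, B and C within a group), split into the leading genes of each class. The Eph receptor bars lose EPHA1 and EPHB4, the secreted semaphorin bars grow through SEMA3C, and the neuropilin bars go from at most 5.83 in control to at least 15.4 with the hairpins.

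The order of levels per kb changed near its top. In control the 5 highest members were EPHA2 at 94.6, PLXNB2 at 72.2, EPHB4 at 36.0, PLXNA1 at 29.6 and SEMA3C at 29 CPM per kb. SEMA3C was in the second place in both knockdown groups, at 65.4 CPM per kb with hairpin #1 and 94.2 with hairpin #3, next to EPHA2 at 69.9 and 96.2. NRP2 moved from rank 31 to ranks 15 and 8 among the 53 genes, and EPHA1 from rank 8 to ranks 42 and 40.

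Some known ligand and receptor pairs were set side by side, with values on the log2 scale with hairpin #1 and hairpin #3. They were not picked by a rule set beforehand and are not all the pairs of these families. SEMA7A was at -0.86 and -0.76 and its receptor PLXNC1 at 2.33 and 2.82. SEMA3E was at -0.94 and -0.76 and PLXND1 at 0.98 and 1.10. SEMA4D was at -0.05 and 0.01 and PLXNB1 at -1.37 and -1.26. These pairs thus had a receptor and a ligand that did not share a direction of change. SEMA5A and PLXNB3 were both lower, and SEMA3C and NRP2 were both higher. EFNB2 and EPHB4 were both lower in their values, EFNB2 passing the adjusted p-value with hairpin #3 alone (adjusted p = 0.00258).

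The hairpins were compared directly as well. Of the 46 genes, 8 passed the adjusted p-value between hairpin #3 and hairpin #1, where 11.6% of all tested genes passed, and EPHA3 alone was past the fold threshold too. Of these 8, EPHA3 alone passed the adjusted p-value in every fit that left out a single library. The 95% interval of the difference lay within 1 on the log2 scale for 34 of the 46 genes and for 12 of the 15 genes called with both hairpins. The exceptions among the 15 were EPHB1, EPHB6 and SEMA5A, with intervals of 0.11 to 1.25, -1.20 to 1.56 and -4.09 to -0.36. Genes called with 1 hairpin alone numbered 9 of 46, or 19.6%, where 7.61% of all tested genes were. For 8 of these 9 the difference between the hairpins did not pass the test, and EPHA3 was the exception.

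Chromosome neighbourhood differed between the hairpins for a few members. For each gene the median log2 fold change of 50 neighbouring expressed genes was taken. With hairpin #1 these medians lay between -0.03 and 0.16 for all reported genes except EPHA5, at -0.40, and SEMA5A, at 0.44. With hairpin #3 they lay between -0.13 and 0.14 except for PLXNC1, at 0.32, and SEMA5A, at -0.26. EPHA5 was 0.62 higher on the log2 scale with hairpin #3 than with hairpin #1 (adjusted p = 0.0295), and its neighbours were 0.45 higher. SEMA5A was lower by 2.22 ± 0.864 (adjusted p = 0.124), and the median of its neighbours fell by 0.73. Against control EPHA5 rose and SEMA5A fell with both hairpins. With hairpin #1 and hairpin #3 the neighbour medians were -0.40 and 0.06 for EPHA5, and 0.44 and -0.26 for SEMA5A. The part of the neighbourhood in these values was not tested.

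**Figure D5:**
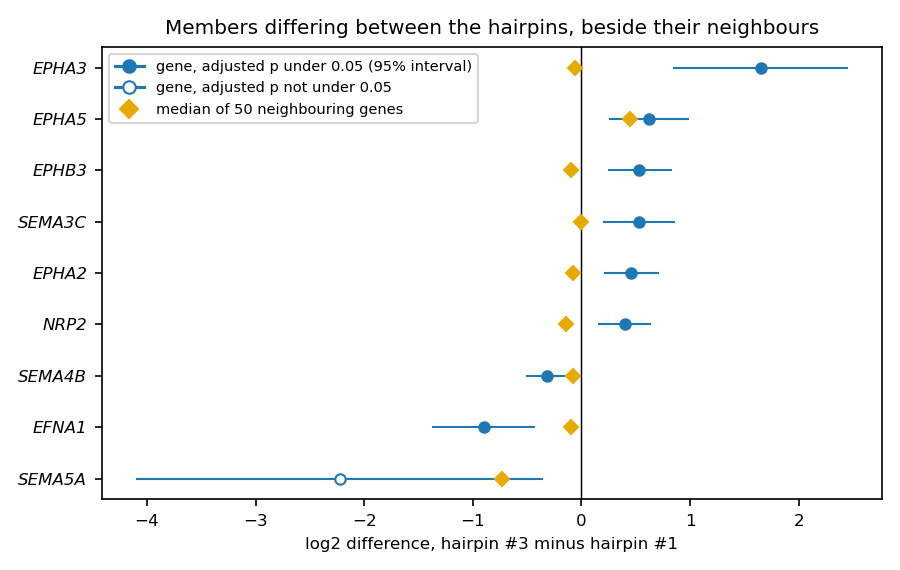
Log2 difference of hairpin #3 minus hairpin #1 with its 95% interval for the 8 genes that passed the adjusted p-value and for SEMA5A (open), beside the median difference of 50 neighbouring genes (diamonds). For EPHA5 the diamond at 0.45 lies inside the interval, and for EPHA3 and EFNA1 it lies near 0.

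Other genes of the guidance pathways were counted in the same way. The lists, 96 genes of which 79 were tested, hold no member of the families above. Of 15 tested genes among 22 other guidance ligands and receptors, 6 were higher and 2 lower with hairpin #1 and 8 higher and 2 lower with hairpin #3, which was 53.3% and 66.7%, against 16.3% and 15.3% of all tested genes. SLIT3, a ligand of Robo receptors, went from 1.99, 2.84 and 4.25 CPM in control to 129, 220 and 180 with hairpin #1 and 77.6, 92.4 and 102 with hairpin #3, at log2 fold changes of 5.86 and 4.90. UNC5B, a netrin receptor, rose by 3.86 ± 0.506 and 3.42 ± 0.522 from less than 0.3 CPM. DRAXIN, which binds the netrin receptor DCC, rose by 3.55 ± 0.622 and 3.25 ± 0.647 from less than 0.1 CPM. Their highest counts in any library were 86 and 23, so these fold changes rest on few reads in control. RGMA, a ligand of neogenin, and NTN4, a netrin of basement membranes, were the 2 called lower, at -3.24 and -3.39 and at -2.95 and -3.43.

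Of 12 tested semaphorin co-receptors and partners among 17, 4 were called higher and 1 lower with hairpin #1 and 1 higher and 2 lower with hairpin #3, or 41.7% and 25%. KDR was called higher and MST1R lower with both hairpins, or 16.7% of the list against 11.8% of all tested genes. KDR, a receptor of vascular endothelial growth factor that pairs with neuropilins, was at 0.149 to 0.484 CPM in control, against 2.39 to 2.66 with hairpin #1 and 1.65 to 1.82 with hairpin #3, at log2 fold changes of 3.10 and 2.52. MST1R, a receptor tyrosine kinase that associates with class B plexins, was at -1.76 and -1.78. Its relative MET was at -0.91 and -0.96 and ERBB2 at -0.85 and -0.86, all 4 past the adjusted p-value. FLT1, another receptor of vascular endothelial growth factor, was called in opposite directions with the hairpins. It was at 1.02, 1.19 and 0.430 CPM in control, at 2.80, 2.24 and 2.27 CPM with hairpin #1, and at 0.0588, 0 and 0 CPM with hairpin #3, and the difference between the hairpins passed the test (adjusted p = 5.07e-05). The adhesion molecules L1CAM and NRCAM were called higher with hairpin #1 (1.00 and 1.96) and not with hairpin #3 (-0.09 and 0.81), and were called between the hairpins too (-1.09 and -1.16, adjusted p = 6.85e-05 and 0.00349).

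Among 26 tested genes of plexin signalling, 3 were higher and 1 lower with hairpin #1 and 4 higher and 2 lower with hairpin #3, or 15.4% and 23.1%, and the share with hairpin #1 was near that of all tested genes. DPYSL3, MICAL2 and DPYSL5 were called higher and RHOD lower with both. DPYSL3 and DPYSL5 belong to the collapsin response mediator proteins and MICAL2 to the plexin-linked oxidases of actin. Their log2 fold changes were 1.73 and 1.17 for DPYSL3, 1.36 and 1.23 for MICAL2, and 1.22 with either hairpin for DPYSL5. Among 26 tested genes of Eph and ephrin signalling, 4 were higher and 2 lower with hairpin #1 and 4 higher and 3 lower with hairpin #3, or 23.1% and 26.9%. CHN1, a Rac-specific GTPase activator that acts behind EPHA4, rose by 3.03 and 2.04, SH2D3C, an adaptor of EPHB receptors, rose by 2.49 and 2.20, and VAV1, a guanine nucleotide exchange factor, was at -2.70 and -2.49.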

How the data were processed

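RNA of OVCA433 cells was measured in 9 libraries, made per the labels from poly(A)-selected RNA without strand. The authors deposited 1 table of read counts by gene, with no normalisation. The submitters' processing notes name HISAT2 2.0.5, featureCounts 1.5.0-p3 and hg38. Of the table's genes, 95.2% had the same position in GENCODE 29, and gene positions are those of the table. All 9 count columns were assigned to samples through the library names in the labels, and no 2 libraries held identical counts.

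Genes were filtered with filterByExpr of edgeR 4.0.16 (minimum count 10, minimum total count 15) in R 4.3.3. The 15975 genes kept held 99.889% of the counts. The quasi-likelihood test of edgeR (glmQLFit, glmQLFTest) with TMM factors was fitted to all 9 libraries with 3 groups, and in a 2-arm model with both hairpins as 1 arm, as the study grouped them. P-values were adjusted by Benjamini-Hochberg over all tested genes. Standard errors were derived from each fold change with the F value of its test. Levels between genes are CPM per kb of the deposited gene length. The fits were tested on simulated counts. Exact counting intervals and floors cover counting error only, since reads without molecular identifiers are not independent molecules.

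Values in every library are given for members called in the same direction with both hairpins, members called between the hairpins, the 5 members highest per kb in control, and the neuropilins. Of other lists, at most 3 genes with the largest pooled change among those called with both hairpins were named, and MET, ERBB2, FLT1, L1CAM, NRCAM, RGMA, NTN4, RHOD and the single ovarian serous markers were added after their values were seen. The members, lists and tests were chosen with earlier results of these data known.

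Alternatives were other filters, DESeq2 size factors, a block for the replicate letter, leaving out single libraries, the Wald test of DESeq2 1.42.0, other thresholds, protein-coding genes alone, and only the libraries compared. Leaving out all libraries of letter A was added after seeing the data. P-values measure the spread between the libraries of a group, which the methods describe as biological replicates of 1 cell line. Of the promoter windows with the motif, only some are shown, and 1 is not reported here.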

Additional observations from a re-analysis of the deposited data

Results flagged for a closer look

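For 8 members the effect of hairpin #3 against control differed from that of hairpin #1 by the test of the difference itself, which 11.6% of all tested genes passed. On the log2 scale, hairpin #3 minus hairpin #1 was 1.65 for EPHA3, 0.62 for EPHA5, 0.53 for SEMA3C, 0.53 for EPHB3, 0.46 for EPHA2 and 0.40 for NRP2. It was -0.90 for EFNA1 and -0.32 for SEMA4B. The adjusted p-values of edgeR's quasi-likelihood test were 0.0109 for EPHA3, 0.0295 for EPHA5, 0.0349 for SEMA3C, 0.0187 for EPHB3, 0.0152 for EPHA2, 0.0314 for NRP2, 0.0146 for EFNA1 and 0.0263 for SEMA4B. With single libraries left out in turn, that of EPHA3 stayed under 0.05 (at most 0.0471), and it was 0.0509 with the B and C libraries alone. Those of the other genes rose in their weakest fit to between 0.0672 for EFNA1 and 0.148 for SEMA3C. EPHA2 and EPHB3 passed the adjusted p-value against control with hairpin #1 and not with hairpin #3, as did EFNA1 and SEMA4B, while EPHA5, SEMA3C and NRP2 were called higher with both.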

How the results depend on the processing

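The counts of members called were 20, 19, 1 and 20 for hairpin #1, hairpin #3, hairpin #3 against hairpin #1, and both hairpins as 1 arm. With a 2-fold threshold inside the test they were 10, 10, 0 and 11, and with no fold threshold 33, 31, 8 and 31. Between the hairpins the count was 0 at an adjusted p under 0.01 and with the B and C libraries alone. Leaving out each library in turn gave 19 to 21, 17 to 20, 1 to 3 and 15 to 21. Between the hairpins the count was 3 without hairpin #3 replicate C, and 2 without replicate A of either hairpin. Of the other guidance and downstream genes, 5 were called between the hairpins, and 2 to 7 with each library left out, the 2 without hairpin #1 replicate B. The other alternatives stayed within 1.5 times these counts. With the replicate block the counts of members were 21, 19, 1 and 19. Correlations of the deviations of same-letter libraries were 0.0642 to 0.678, with 1 of 9 pairs under 0.1, and those of different-letter libraries were -0.672 to 0.327. The letters were not taken as pairing the samples because of that 1 pair, although all 9 same-letter correlations were positive. The standard errors and adjusted p-values of the main results are thus from fits without the block. The counts with the block are those just given. Libraries of letter A deviated together, and 11 of 46 members had A lowest and 4 had A highest in all 3 groups. No such count is given over all tested genes, so these numbers describe the members alone.

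Small values that were not called changed sign when libraries were left out in turn. Against control, EPHA3 with hairpin #1 ranged from -0.13 to 0.34, including -0.11 without control replicate B, and EPHA2 with hairpin #3 from -0.04 to 0.10, including -0.03 without control replicate A. Between the hairpins the ranges were -0.003 to 0.31 for EPHA4, -0.50 to 0.20 for SEMA3D, -0.0073 to 0.14 for EFNB1, -0.25 to 0.70 for EPHB6, -0.15 to 0.24 for EFNA3 and -0.01 to 0.03 for EPHB4. With the B and C libraries alone, EPHA1 was -0.17 and EFNA3 -0.06. SEMA5A between the hairpins was -4.95 (adjusted p = 0.0497) without hairpin #3 replicate C, which held its only 2 counts with that hairpin. With both hairpins as 1 arm, NRP1 was under the fold threshold without control replicate B (0.93), control replicate C (0.92) or hairpin #1 replicate A (0.99), as was EFNA3 without control replicate C (-0.94), and EPHB6 had an adjusted p of 0.0615 with the B and C libraries alone. In the same comparison SEMA6A and EFNA2 were each called in only 5 of the 9 fits that left out 1 library. PLXNB3 and PLXND1 were each called in 8 of these 9 fits. The causes were not tested.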
